A study of Mus musculus with 4 samples.

Results

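The mRNAs described here encode proteins of the piRNA and small RNA pathways. They were chosen as a list of 37 genes known from chromatoid body (CB), piRNA and microRNA biology, by gene symbol. All 37 were found among the 21936 genes of the count table through their Ensembl identifiers and the GENCODE vM21 annotation of the mouse genome GRCm38, and all 37 passed the filter on low counts that left 14722 genes for testing. Germ cells were released from testes of adult C57BL/6 mice with collagenase, cross-linked with paraformaldehyde, lysed and sonicated, and the fraction pelleted at low speed was used for immunoprecipitation (IP). Antibody against TSSK2 (TSSK2-IP, 2 libraries) or mouse IgG as the control (control IgG-IP, 2 libraries) was bound to Protein G beads, and RNA was recovered after the cross-links were reversed. TSSK2 is a serine/threonine kinase made in elongating spermatids, where it marks the late-CB. The mice carried no stated mutation or treatment in either group, and the number of animals behind a library was not given in the sources used here. Replicates are therefore separate samples of unstated origin, and the p-values measure the spread between these 4 libraries. The comparison asked which mRNAs were recovered with TSSK2 more, or less, than with IgG.

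Piwi-interacting RNAs (piRNAs) are small RNAs of the germline that guide PIWI proteins to transposon RNAs and, in spermatocytes and round spermatids, to other transcripts. Their precursors are cut and trimmed at the surface of mitochondria, in a germ granule called the intermitochondrial cement, and many of the proteins involved later gather in the CB of round spermatids, where Tudor domain proteins act as the scaffold that holds the PIWI proteins. MicroRNAs take a parallel route, in which Drosha and Dicer cut hairpin precursors and Argonaute proteins carry the products to target mRNAs. The measurements below concern the mRNAs of these proteins in the precipitates, and not the proteins or the small RNAs themselves.

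Library totals were 4158034 and 4491749 counts in TSSK2-IP and 9858941 and 3938922 counts in control IgG-IP. Values are given as normalized CPM, that is, CPM computed on library sizes corrected with edgeR's TMM factors, and 1 count was worth between 0.156 and 0.230 normalized CPM. The 2 control libraries stood apart from each other. Over all tested genes, their log2 values differed with an SD of 1.08, against 0.465 for the TSSK2-IP replicates. Reads counted to Lars2 made up 5.80% of control replicate 1 against 10.5% to 14.4% of the other libraries. The paper describes libraries made without rRNA removal, and whether these reads came from Lars2 mRNA was not tested. The summed level of 8 elongating spermatid markers was 5816 normalized CPM in control replicate 1 and between 3233 and 3860 in the other libraries. For 4 round spermatid markers the sums were 523 and 565 in TSSK2-IP and 555 and 473 in control replicates 1 and 2. For 5 markers of spermatogonia they were 33.6 and 27.2 in TSSK2-IP and 29.5 and 37.9 in control replicates 1 and 2. The sums for 5 spermatocyte markers lay between 702 and 797 in all libraries. Those for markers of Sertoli, Leydig and peritubular cells and of macrophages were lower than the spermatocyte sums. Each of these somatic sums was lowest in control replicate 1, with 8.74 for Sertoli cells against 17.9 to 30.5 in the other libraries, 14.4 against 33.3 to 35.4 for Leydig cells, 12.9 against 17.8 to 26.0 for peritubular cells and 11.7 against 12.6 to 20.9 for macrophages. No marker of any of these lists was called between the groups. In such bulk samples, fewer cells of a type and less RNA per cell cannot be told apart, and no input library was analysed here, so recovery in a precipitate and abundance in the lysate cannot be told apart either.

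None of the 37 mRNAs passed both thresholds used for a call in edgeR's quasi-likelihood test, an absolute log2 fold change no smaller than 1 and an adjusted p no greater than 0.05. Over all genes tested, 0.693% were called higher in TSSK2-IP and 0% lower. At an unadjusted p under 0.05, 4 of the 37 were higher in TSSK2-IP (Ago2, Pld6, Exd1 and Tdrd5) where 8.34% of all genes were, and 1 was lower (Tdrd3) where 4.89% of all genes were. DESeq2, run as an alternative, called 1 member higher, Ago2, and 0 lower, out of 35 that it gave an adjusted p, with 1.23% and 0.00767% of all its genes called in these directions. The TSSK2-IP values exceeded both controls in both libraries for 13 members, beside 27.3% of all genes, and were under both controls for 7 members, beside 21.6% of all genes. The median log2 fold change of the 37 was 0.07, with 21 values above 0, and that of all tested genes was -0.02. With DESeq2's size factors the median of the members was -0.06 and 18 values were above 0. As a list, with all libraries in the fit, the pathway mRNAs were spread around the same centre as the other genes, and their counts above were near the background shares. Their place beside the other genes turned with the control. Without control replicate 1 their median was 0.24 against -0.003 for all genes, and without control replicate 2 it was 0.07 against 0.16.

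**Figure D1:**
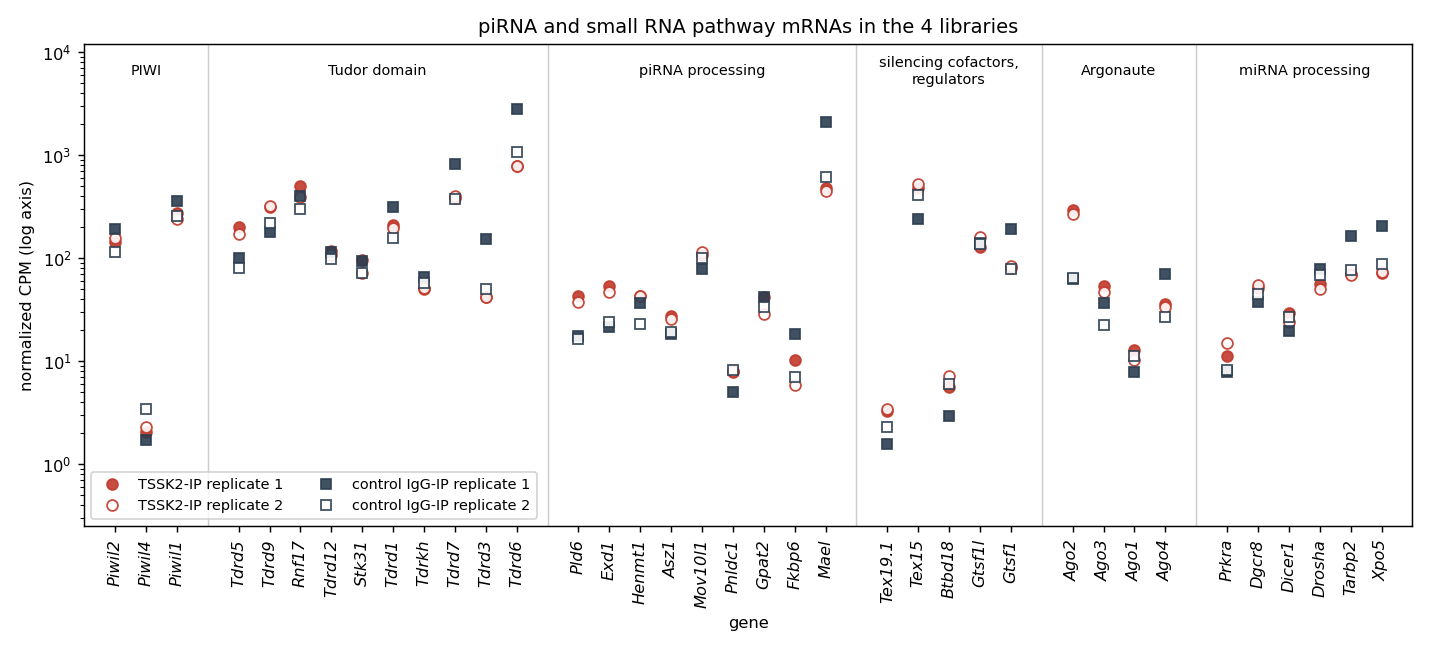
Normalized CPM (log axis) of each of the 37 mRNAs in the 4 libraries, grouped by the role of the protein and ordered within a role by log2 fold change. Circles are the TSSK2-IP libraries and squares the control IgG-IP libraries. For Ago2 the circles (291.9 and 270.2) lie far above the overlapping squares (63.0 and 63.9), and for Mael and Tdrd6 the filled square of control replicate 1 lies above the other 3 libraries.

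Among the 4 Argonaute mRNAs, Ago2 had the largest value of all members. AGO2 is the main Argonaute able to cut its target RNA, and the gene lies on chromosome 15 from 73095844 to 73184935 on the reverse strand. Its counts were 1408 and 1420 in TSSK2-IP and 404 and 278 in control IgG-IP, which corresponded to 291.9 and 270.2 normalized CPM against 63.0 and 63.9. The groups did not overlap, and the replicates of each group lay close to each other. The mean was 281 ± 15.3 (SD, n = 2) in TSSK2-IP and 63.5 ± 0.595 (SD, n = 2) in control IgG-IP, a fold of 4.43. This gave a log2 fold change of 2.15 (SE 0.51, 95% interval 1.04 to 3.25) with an adjusted p of 0.0846 in edgeR's quasi-likelihood test, just outside the threshold. It ranked 213 by log2 fold change and 161 by p among 14722 genes. In DESeq2 the log2 fold change was 2.07 with an adjusted p of 0.00217, and over the alternatives that kept all libraries the adjusted p ran from 0.00217 to 0.153. Without control replicate 1 or without control replicate 2 the log2 fold change was 2.19 or 2.09, and each of these fits called the gene, with the spread then taken from the TSSK2-IP replicates alone.

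The other Argonaute mRNAs showed smaller differences. Ago3 was measured at 53.9 and 47.6 normalized CPM in TSSK2-IP and at 36.8 and 22.3 in control IgG-IP, so that the groups did not overlap. Its log2 fold change of 0.77 (SE 0.41) had an adjusted p of 0.418 in edgeR's quasi-likelihood test, and rested on the control used, with 1.24 without control replicate 1, a call, and 0.39 without control replicate 2. Ago1 was at 12.9 and 10.3 in TSSK2-IP and at 7.96 and 11.3 in control IgG-IP, with overlapping groups and a log2 fold change of 0.27 (SE 0.46, 95% interval -0.72 to 1.27, adjusted p 0.819). For Ago4 the values were 35.9 and 33.5 in TSSK2-IP and 69.9 and 26.7 in control IgG-IP. Here the 2 control libraries enclosed the TSSK2-IP libraries. Ago4 had a log2 fold change of -0.48 (SE 0.46, adjusted p 0.654 in edgeR's quasi-likelihood test), which turned from 0.43 without control replicate 1 to -1.08, a call, without control replicate 2.

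Ratios of raw counts within a library do not depend on the scaling of the libraries. For each count of Ago1 there were 22.7 and 26.3 counts of Ago2 in TSSK2-IP, and 7.92 and 5.67 in control IgG-IP. Against Ago3 the ratio was 5.42 and 5.68 in TSSK2-IP and 1.71 and 2.87 in control IgG-IP. Against Ago4 it was 8.14 and 8.07 in TSSK2-IP and 0.902 and 2.40 in control IgG-IP. In each of these pairs both TSSK2-IP ratios were higher than both control ratios. The same order held for Ago2 against Drosha, with 5.18 and 5.32 in TSSK2-IP and 0.808 and 0.933 in control IgG-IP, and against Piwil1, with 1.05 and 1.11 against 0.174 and 0.247. As Ago2 had the largest log2 fold change of all members, this order restates that difference and adds no separate support. No stretch of at least 150 bp at 97% identity was shared among the Argonaute transcripts. The stretch of 222 bp that Ago2 shared was with Chrac1, a neighbour that overlaps its exons on the opposite strand over 1.56% of their length, and Chrac1 itself had a log2 fold change of 0.18 (adjusted p 0.882).

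**Figure D2:**
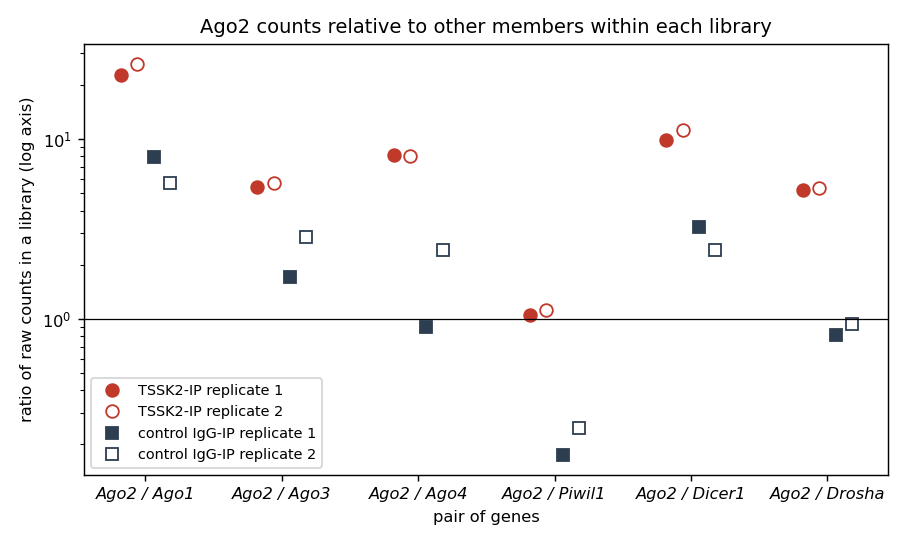
Ratio of the raw counts of Ago2 to those of 6 other members within each library (log axis), with circles for TSSK2-IP and squares for control IgG-IP. Both circles lie above both squares for every pair, for example 22.7 and 26.3 against 7.92 and 5.67 for Ago1. This order follows from Ago2 having the largest log2 fold change of all members.

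Of the 9 mRNAs for piRNA processing and end trimming, Pld6 and Exd1 lay highest in TSSK2-IP over control and Mael lowest. PLD6 is the mitochondrial nuclease, also called Zucchini, that is needed to form piRNA ends, and its gene lies on chromosome 11 from 59783897 to 59787645. Pld6 was measured at 43.3 and 37.5 normalized CPM in TSSK2-IP and at 17.6 and 16.5 in control IgG-IP. Every TSSK2-IP value was 2-fold or more over every control value, which was the case for 2 members, Ago2 and Pld6, and for 4.01% of all genes. Its log2 fold change was 1.24 (SE 0.39, 95% interval 0.39 to 2.09) with an adjusted p of 0.236 in edgeR's quasi-likelihood test. It was 1.34 without control replicate 1 and 1.13 without control replicate 2, both called.

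Exd1 encodes a partner of the piRNA machinery of the intermitochondrial cement, and lies on chromosome 2 from 119516505 to 119547627. It was at 53.9 and 47.4 normalized CPM in TSSK2-IP and at 21.4 and 24.1 in control IgG-IP. The groups were again apart, with a log2 fold change of 1.15 (SE 0.39, 95% interval 0.31 to 2.00) and an adjusted p of 0.263 in edgeR's quasi-likelihood test. The value was 1.12 without control replicate 1 and 1.17 without control replicate 2, both called. Ago2, Pld6 and Exd1 were the 3 members whose log2 fold change was 1 or more against each control library in turn, beside 5.82% of the genes fitted both times, and 0 members were at -1 or below against each, beside 0.699%.

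Mael, which encodes the germ granule protein Maelstrom of the transposon silencing pathway, was at 477.8 and 445.1 normalized CPM in TSSK2-IP and at 2091.5 and 609.3 in control IgG-IP. Both TSSK2-IP libraries lay below both controls, but the distance to the nearer control was small beside the distance between the controls. Its log2 fold change was -1.55 (SE 0.84, 95% interval -3.36 to 0.26, adjusted p 0.424 in edgeR's quasi-likelihood test). It was -0.34 without control replicate 1 and -2.25, a call, without control replicate 2.

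The other processing factors had log2 fold changes between -0.66 and 0.51, with adjusted p-values from 0.572 to 0.935. Henmt1, the methyltransferase that protects the 3′ end of piRNAs, was at 0.51 and shares sequence with the overlapping Gm9857, which makes its count uncertain. Asz1, a mitochondrial scaffold protein, was at 0.50, and Mov10l1, the helicase that feeds precursors into processing, at 0.30. For all 3 both TSSK2-IP libraries lay above both controls. Pnldc1, the trimming exonuclease, was at 0.27, Gpat2, a mitochondrial membrane protein of primary processing, at -0.10, and Fkbp6, a co-chaperone, at -0.66, all with overlapping groups. The median of the 9 was 0.30, with 6 values above 0, and was between 0.18 and 0.42 with another scaling or without either control library.

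The 10 Tudor domain mRNAs held values at both ends of the range, with a median of -0.09 and 5 values above 0. The median turned with the control, from 0.27 with 7 values above 0 without control replicate 1 to -0.35 with 3 without control replicate 2, and was -0.23 with DESeq2's size factors. Tdrd5, whose protein binds piRNA precursors and is needed for CB assembly, lies on chromosome 1 from 156255296 to 156303664 and was the highest. It was at 201.9 and 173.2 normalized CPM in TSSK2-IP and at 101.7 and 80.4 in control IgG-IP, without overlap. The log2 fold change was 1.04 (SE 0.48, 95% interval 0.02 to 2.06, adjusted p 0.369 in edgeR's quasi-likelihood test), 1.28 and called without control replicate 1, and 0.81 without control replicate 2.

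Tdrd6, which encodes a large scaffold protein of the CB, was at 788.2 and 781.3 normalized CPM in TSSK2-IP and at 2839.0 and 1064.0 in control IgG-IP. Tdrd3, whose protein reads arginine methylation and is not limited to germ cells, was at 42.5 and 42.1 in TSSK2-IP and at 153.7 and 50.3 in control IgG-IP. For both mRNAs the TSSK2-IP libraries agreed closely and lay below both controls, with control replicate 2 the nearer. The log2 fold change of Tdrd6 was -1.31 (SE 0.91, adjusted p 0.521) and that of Tdrd3 -1.27 (SE 0.51, adjusted p 0.325) in edgeR's quasi-likelihood test. Without control replicate 2 they were -1.92 and -1.93, both called, and without control replicate 1 only -0.38 and -0.19. For each count of Tdrd6 there were 0.256 and 0.222 counts of Tdrd5 in TSSK2-IP and 0.0358 and 0.0756 in control IgG-IP. This order does not depend on the scaling. It follows, however, from the choice of the highest and the lowest Tudor mRNA by log2 fold change, and adds no separate support.

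The remaining 7 Tudor mRNAs ranged from -0.62 for Tdrd7 to 0.66 for Tdrd9, with adjusted p-values from 0.596 to 0.992. Tdrd7 encodes a protein of CB maturation, and its controls were 829 and 373 normalized CPM around 383 and 401 in TSSK2-IP. Tdrd9, an RNA helicase of the piRNA pathway, was at 313 and 322 in TSSK2-IP and at 182 and 220 in control IgG-IP, without overlap. Tdrkh, the mitochondrial partner of PIWI proteins, was below both controls with a log2 fold change of -0.28, and 36.7% of its exon length overlaps Oaz3 on the opposite strand, with which it shares 2255 bp, so that its count is uncertain. Tdrd1 (-0.20), Stk31 (0.01), Tdrd12 (0.07) and Rnf17 (0.34) had overlapping groups.

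The 3 PIWI mRNAs lay close to 0. Piwil1 (MIWI), the PIWI protein of late spermatocytes and round spermatids, was at 277.2 and 242.6 normalized CPM in TSSK2-IP and at 362.4 and 258.9 in control IgG-IP. Piwil2 (MILI), which is present from early germ cells to round spermatids, was at 144.3 and 158.7 in TSSK2-IP and at 191.8 and 116.0 in control IgG-IP. Both groups overlapped for both mRNAs. The log2 fold change of Piwil1 was -0.26 (SE 0.57, 95% interval -1.47 to 0.96, adjusted p 0.869) and that of Piwil2 -0.02 (SE 0.50, 95% interval -1.09 to 1.04, adjusted p 0.988) in edgeR's quasi-likelihood test. Both changed sign with the control left out, Piwil1 from 0.06 without control replicate 1 to -0.55 without control replicate 2, and Piwil2 from 0.44 to -0.41. The interval of Piwil2 includes a 2-fold change in either direction and that of Piwil1 a 2-fold decrease. Piwil4 (MIWI2), which acts in the nucleus of fetal germ cells, had only 10 and 12 counts in TSSK2-IP and 11 and 15 in control IgG-IP, and its log2 fold change was -0.22 (SE 0.86, adjusted p 0.934), from -0.60 without control replicate 1 to 0.27 without control replicate 2.

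Among the 5 mRNAs of silencing cofactors and regulators of piRNA loci or transposons, the log2 fold change ran from -0.72 to 0.81 with a median of 0.54, which was 0.16 without control replicate 1 and 0.99 without control replicate 2. Tex19.1, which encodes a protein that restrains transposons in germ cells, had the highest value, but on few counts, 16 and 18 in TSSK2-IP and 10 in each control library. Its 3.32 and 3.43 normalized CPM in TSSK2-IP lay above 1.56 and 2.30 in control IgG-IP, with a log2 fold change of 0.81 (SE 0.82, 95% interval -0.94 to 2.57, adjusted p 0.667 in edgeR's quasi-likelihood test). It was 0.60 without control replicate 1 and 1.03 without control replicate 2, neither of them called. Tex15, whose protein takes part in transposon silencing through piRNAs, was at 480 and 520 in TSSK2-IP and at 240 and 410 in control IgG-IP, without overlap and with a log2 fold change of 0.62. Btbd18, a regulator of pachytene piRNA loci, was at 0.54. The related piRNA cofactors Gtsf1 and Gtsf1l were at -0.72 and 0.07. The controls of Gtsf1 were 192 and 79.5 around 80.9 and 83.5 in TSSK2-IP, while Gtsf1l lay between 130 and 161 in all libraries.

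The 6 mRNAs of microRNA processing and loading divided evenly, with 3 values above 0 and 3 below. Dgcr8, the RNA-binding partner of Drosha, was at 51.4 and 55.2 normalized CPM in TSSK2-IP and at 37.3 and 45.0 in control IgG-IP, and Drosha, the nuclear nuclease, at 56.4 and 50.8 against 78.0 and 68.5. The groups of both were apart, in opposite directions, with log2 fold changes of 0.37 (SE 0.39, adjusted p 0.682) for Dgcr8 and -0.45 (SE 0.40, adjusted p 0.623) for Drosha in edgeR's quasi-likelihood test. Dgcr8 shares 825 bp with the overlapping gene Trmt2a, which makes its count uncertain. Dicer1, the cytoplasmic nuclease, was at 29.6 and 24.0 in TSSK2-IP and at 19.5 and 26.7 in control IgG-IP, with overlap and a log2 fold change of 0.22 (SE 0.40, 95% interval -0.64 to 1.08, adjusted p 0.835).

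Xpo5, which exports microRNA precursors from the nucleus, was at 71.9 and 73.8 normalized CPM in TSSK2-IP and at 204.9 and 88.7 in control IgG-IP. Tarbp2, a Dicer partner, was at 71.1 and 68.7 in TSSK2-IP and at 164.4 and 76.5 in control IgG-IP. For both, the TSSK2-IP libraries lay slightly under control replicate 2 and far under control replicate 1. The log2 fold change of Xpo5 was -1.01 (SE 0.50, adjusted p 0.394) and that of Tarbp2 -0.79 (SE 0.48, adjusted p 0.472), and in edgeR's quasi-likelihood test without control replicate 2 they were -1.56 and -1.30, both called, against -0.23 and -0.07 without control replicate 1. Tarbp2 shares 603 bp at 99.3% identity with Gm18584, so that its count is uncertain. Prkra, another Dicer partner, was above both controls with a log2 fold change of 0.71 (adjusted p 0.497) that was 0.72 and 0.68 without either control.

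**Figure D3:**
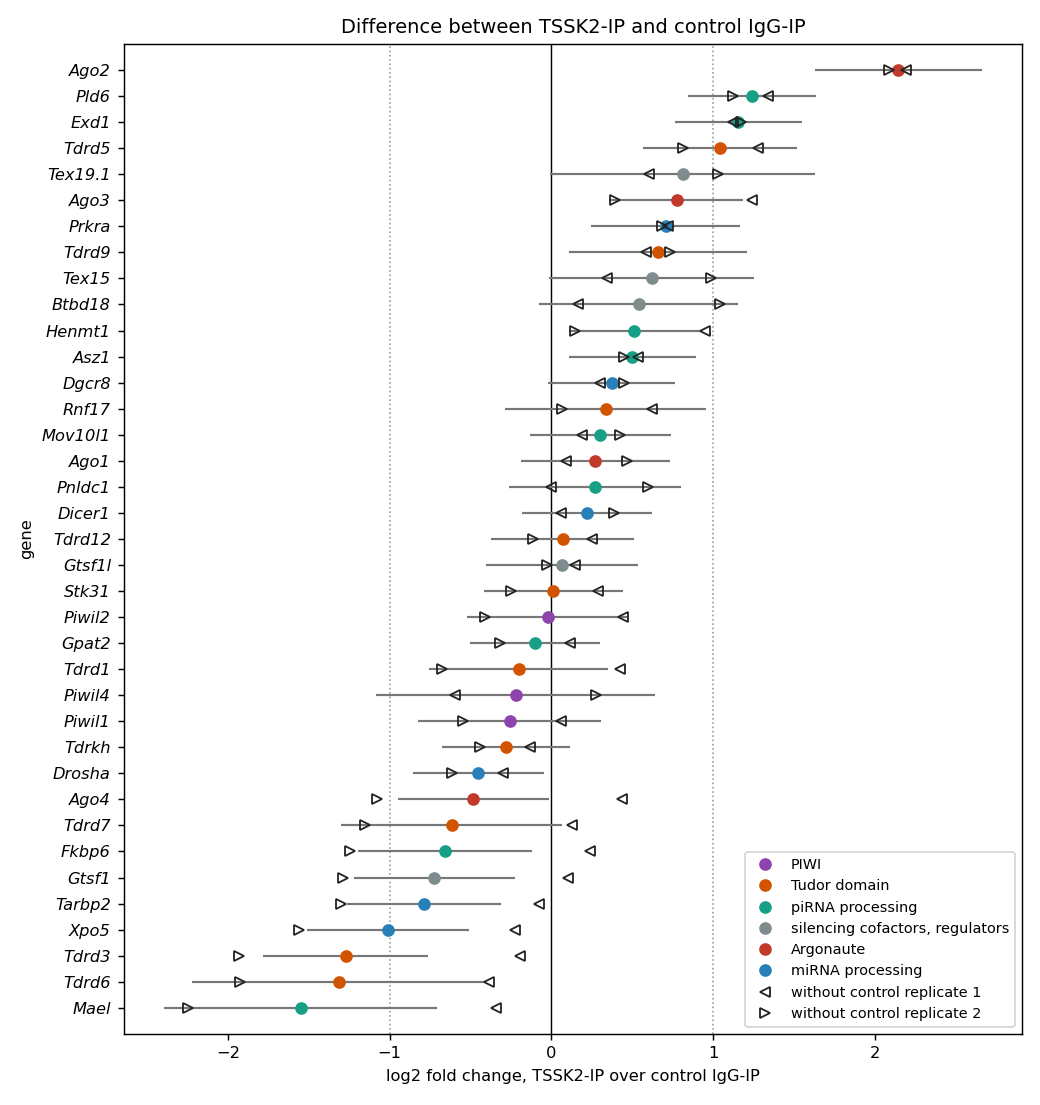
Log2 fold change of TSSK2-IP over control IgG-IP for the 37 mRNAs, with the SE as a bar and triangles for the fits without control replicate 1 (pointing left) and without control replicate 2 (pointing right). Dotted lines mark a 2-fold change. The triangles almost coincide for Ago2, Exd1 and Prkra and lie on opposite sides of 0 for 13 mRNAs.

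The values below 0 depended most on the control library used. The controls were at least 2-fold apart for 11 members, beside 43.6% of all genes. For 9 of the 37 members control replicate 1 was the higher by this much, beside 16.8% of all genes. These 9 were Tdrd3, Gtsf1, Tarbp2, Tdrd7, Fkbp6, Tdrd6, Mael, Ago4 and Xpo5. The TSSK2-IP libraries were 2-fold apart for 0 members, beside 6.7% of all genes. Without control replicate 1, edgeR's quasi-likelihood test called 5 members higher (Ago2, Pld6, Exd1, Tdrd5 and Ago3) and 0 lower, where 5.38% of all genes were called higher and 2.56% lower. Without control replicate 2 it called 3 members higher (Ago2, Pld6 and Exd1) and 9 lower, the 9 named above, where 17.9% and 17.4% of all genes were called. The lone control is assumed in these fits to vary as the TSSK2-IP replicates did, although the 2 controls differed more from each other. Without TSSK2-IP replicate 1 or replicate 2, 0 members were called, where 0.137% and 0.202% of all genes were called higher and 0% lower. Taking the replicate number as a block, the test also called 0 members, where 1.86% of all genes were called higher and 0.0204% lower. Against each control alone, the log2 fold change was above 0 both times for 17 members, below 0 both times for 7, and opposite in sign for 13, beside 35.6%, 26.2% and 38.2% of the 15307 genes fitted both times. It was above 0 without control replicate 1 and below 0 without control replicate 2 for 11 of the 37, beside 18.6% of these genes. The sum of the elongating spermatid markers was also highest in control replicate 1, but the list was not uniform. Prm2, a protamine, was at 2788 normalized CPM there against 1103 to 1689 in the other libraries, while Tnp1, a transition protein, was lowest there, at 308 against 355 to 402. The somatic sums were lowest in control replicate 1, but the sums for round spermatids and spermatogonia were not. The somatic lists were not uniform either, as Csf1r and Acta2 were higher in control replicate 1 than in both TSSK2-IP libraries. The part of these cell types in the values was not tested.

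**Figure D4:**
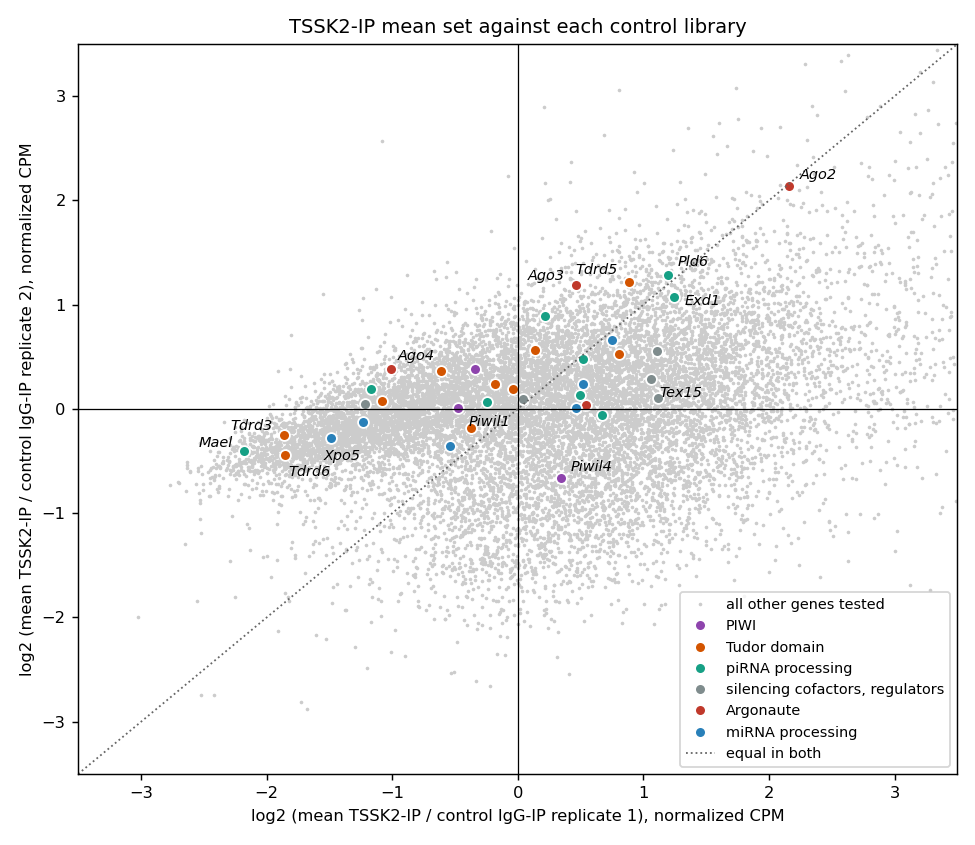
Log2 ratio of the TSSK2-IP mean to control replicate 1 (horizontal axis) and to control replicate 2 (vertical axis), both from normalized CPM, for the 37 mRNAs (coloured by role) and all other tested genes (grey, those beyond the axes not drawn). Both axes share the TSSK2-IP mean. Ago2, Pld6 and Exd1 lie at 1 or above on both axes. Mael, Tdrd6, Tdrd3 and Xpo5 lie far left and are also below 0 on the vertical axis, but by less.

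Levels of different mRNAs were compared per length, as the mean normalized CPM per kb of annotated exon sequence. In TSSK2-IP, the highest level among the members was that of Mael, at 266 per kb, followed by Gtsf1l at 177, Tdrd6 at 111 and Tdrd7 at 99.0. The same 4 mRNAs held the first 4 places in each control library. In control replicate 2 their order was that of TSSK2-IP, with 352 for Mael, 166 for Gtsf1l, 151 for Tdrd6 and 94.2 for Tdrd7 per kb. In control replicate 1 it was Mael at 1207, Tdrd6 at 402, Tdrd7 at 209 and Gtsf1l at 172. By group means, Piwil1 took place 6 in both groups with 59.6 and 71.3 per kb, and Piwil4 was last in both with 0.405 and 0.479. Ago2 moved from place 28 in control IgG-IP, at 4.52 per kb, to place 17 in TSSK2-IP, at 20.0. Pld6 was at place 23 with 9.73 in control IgG-IP and at place 16 with 23.0 in TSSK2-IP.

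Further genes of the same pathways, from lists of textbook members, were examined in the same fit. Of 14 other piRNA and CB genes, 11 were tested, none was called in edgeR's quasi-likelihood test and 0 reached an unadjusted p under 0.05. Their median log2 fold change was -0.80, and it was -0.22 without control replicate 1. They include Ddx4, which encodes the CB helicase MVH and was at 354 and 368 normalized CPM in TSSK2-IP and at 865 and 422 in control IgG-IP, and Mov10, a helicase related to Mov10l1, at 22.4 and 19.8 in TSSK2-IP and at 6.40 and 14.9 in control IgG-IP. Ddx4 thus lay below both controls and Mov10 above both. Of the 11 genes, 6 lay below both controls, beside 21.6% of all genes, and 2 above both, beside 27.3%. The 20 other small RNA genes had a median of 0.19 (0.59 without control replicate 2) and none was called. At an unadjusted p under 0.05, 1 was higher in TSSK2-IP, Lin28b, where 8.34% of all genes were. Lin28b, an inhibitor of let-7 microRNA processing, was at 26.7 and 27.6 in TSSK2-IP and at 11.4 and 13.3 in control IgG-IP, with a log2 fold change of 1.14. The related Lin28a was at 6.84 and 5.14 in TSSK2-IP and at 2.81 and 6.66 in control IgG-IP, with overlap. Its log2 fold change was -0.10 without control replicate 1 and 1.01 without control replicate 2. Of the 20 genes, 9 lay above both controls, beside 27.3% of all genes, and 3 below both, beside 21.6%. The 9 include the mRNAs of the Argonaute partners Tnrc6a and Tnrc6b. Tnrc6a was at 59.3 and 52.1 against 29.3 and 37.2, and Tnrc6b at 160.9 and 156.4 against 87.4 and 109.8. Their log2 fold changes were 0.74 and 0.69, without a call. The mRNA of the third family member, Tnrc6c, was at 242.1 and 183.4 in TSSK2-IP and at 320.8 and 182.4 in control IgG-IP, with overlap.

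Properties of the transcripts were also set beside the values. The exon length of the 37 genes ranged from 822 to 16750 bp with a median of 5287 bp, and the GC content of the longest transcript from 36.3% to 55.6% with a median of 49.2%. The medians over all tested genes were 4519 bp and 49.4%. Across the 37 genes, which are no independent replicates and share the same 4 libraries, Pearson's r with the log2 fold change was 0.18 for length (Spearman's rho 0.12) and -0.01 for GC content (rho -0.03). The genes lie on 16 chromosomes, with 5 members each on chromosomes 2 and 15. Ago1, Ago3 and Ago4 lie beside each other on chromosome 4, between 126331704 and 126533472, and had log2 fold changes of 0.27, 0.77 and -0.48, while Ago2 lies apart on chromosome 15. Exons of 7 members overlap a gene on the opposite strand. The libraries were directional, but the strand setting of the counting was not given in the sources used here, so reads of such partners may not be separated. For Ago2 and Tdrd5 the overlap covers 1.56% and 2.54% of the exon length.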

How the data were processed

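RNA was sequenced from directional libraries, which the paper describes as made without rRNA removal, 2 of TSSK2-IP and 2 of control IgG-IP. The authors used Trimmomatic 0.39 to trim the read pairs, STAR (2.7.10a in the submitters' processing notes) to map them to GRCm38, and featureCounts 2.0.3 to count them. They deposited raw counts per gene, whole numbers without normalization. Identifiers were named with GENCODE vM21 (21894 of 21936). Counts were fitted with edgeR 4.0.16 in R 4.3.3 (filterByExpr, TMM, glmQLFit, glmQLFTest) without covariates, and p-values were adjusted by Benjamini-Hochberg over 14722 genes. The common dispersion was 0.135. SEs were computed as the size of the log2 fold change over the square root of F. The thresholds are those of the study, whose own test, DESeq2, was run as an alternative (1.42.0). Other alternatives were 2 scalings (DESeq2's size factors and upper quartiles), no filter on low counts or a filter of 10 counts in every library, removal of Lars2, the replicate number as a block, and leaving out each library. Shared stretches were searched with BLAST+ 2.17.0 between transcripts.

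All values were given for members past both thresholds, the 5 highest and 5 lowest by log2 fold change, and always the PIWI and Argonaute genes, Drosha, Dgcr8 and Dicer1, 19 in all. Others were given by group, range and count. Those with values beyond that were chosen after their values were seen, as were Ddx4, Mov10, the Lin28 and Tnrc6 genes and the single cell type markers named. The members and gene lists were chosen with earlier results of these data known. The edgeR and DESeq2 fits with all libraries were also run on simulated counts that gave both groups the same dispersion. The controls here differed more than the TSSK2-IP replicates, so the simulation does not cover that difference. The fits with a library left out or with a block were not simulated. The floor of 3 counts was worth 0.468 to 0.689 normalized CPM and covers counting error only. Libraries of DDX4-IP and listed genes with no row in the table were not analysed here.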

Additional observations from a re-analysis of the deposited data

How the results depend on the processing

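The count of pathway mRNAs called higher, 0 with all libraries in edgeR, was 1 with DESeq2 and ran from 0 to 5 when a library was left out, and the count called lower, also 0, ran from 0 to 9, both depending on which control was left out. Over all genes, 102 were called higher, against 160 with DESeq2, 20 with upper-quartile normalization, 283 without a filter on low counts, 29 with at least 10 counts in every library, 274 with the replicate block and between 23 and 2755 when a library was left out. Lower calls were 0 over all genes, against 1 with DESeq2, 24 without a filter, 3 with the replicate block and between 0 and 2688 when a library was left out. The cause was not tested. The median log2 fold change of the members, 0.07, was -0.015 with DESeq2, -0.060 with DESeq2's size factors, 0.035 without a filter, 0.14 with at least 10 counts in every library, and between 0.053 and 0.24 when a library was left out. DESeq2's size factors moved the median of all genes from -0.02 to -0.14, so that the members stood at a similar distance from it. Replicate numbers are shared labels that were not shown to pair the libraries, with a correlation of same-numbered deviations of 0.13 over all genes and 0.23 over the 7361 more abundant genes. The block called 0 members. Of the 19 members with full values, Piwil2 changed sign with at least 10 counts in every library (0.055) and with the replicate block (0.020). Leaving out a library gave between -0.55 and 0.061 for Piwil1, -0.41 and 0.44 for Piwil2, -0.60 and 0.27 for Piwil4, and -1.08 and 0.43 for Ago4. Over the settings with all libraries, 128 values of these members kept their direction and their side of the threshold, and 1, that of Ago2 with DESeq2, passed it. DESeq2 gave no adjusted p for Tex19.1 and Piwil4, which kept their direction. Without either TSSK2-IP library no member was called, and Ago2 had an adjusted p of 0.9997 with log2 fold changes of 2.08 and 2.19.

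Depth limits some members. Of the 37, 27 had at least 100 counts in every library, while Piwil4 and Tex19.1 had as few as 10 counts and SEs of 0.86 and 0.82.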

Other observations

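The genes within 250 kb of the 4 members with the largest log2 fold change were examined after the members' values were seen. Near Ago2, 3 genes were tested, Chrac1 at 0.18, Ptk2 at -0.50 and Trappc9 at -1.06, with a median log2 fold change of -0.50. Near Pld6, 8 genes had a median of -0.27, from -1.46 for Mprip to 1.26 for Pemt. Mprip was below both controls, with 545 and 496 normalized CPM in TSSK2-IP and 2120.2 and 737 in control IgG-IP, and Pemt above both, with 9.95 and 11.8 against 5.30 and 3.68. Near Tdrd5, 3 of 5 genes had values above 0. Soat1 was at 1.28 and Tor1aip2 at 1.16, each above both controls, and Tor1aip1 was below both at -0.67.

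Near Exd1, 11 genes had a median log2 fold change of 0.43. The nearest, Chp1, which encodes a calcium-binding protein and begins 70 bp away, was at 37.5 and 33.7 normalized CPM in TSSK2-IP and at 17.3 and 15.2 in control IgG-IP, a log2 fold change of 1.13 close to the 1.15 of Exd1. Neither was called, with an adjusted p of 0.271 for Chp1 and 0.263 for Exd1 in edgeR's quasi-likelihood test.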
